A study of Mus musculus with 20 samples.

Results

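The gene encoding thioredoxin-interacting protein (Txnip), the gene of the carbohydrate response element binding protein ChREBP (Mlxipl) and 7 genes of glycolysis and fatty acid synthesis (Pklr, Acly, Fasn, Elovl6, Scd1, Scd2 and Me1) were described across MIN6 cells kept at high or low glucose. Members were all probe sets annotated to exactly 1 of these 9 genes, which gave 21 of the 22690 probe sets on the array, for 9 of 12393 genes. Of these 21, 17 passed a filter that left out the 40% of single-gene probe sets with the lowest mean, and 12228 probe sets were tested in all. The 4 below the filter (Scd2 1415824_at, Scd1 1415965_at, Acly 1438389_x_at and Acly 1439445_x_at) took no part in the tests over these 12228 probe sets.

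MIN6 is a mouse pancreatic beta cell line derived from an insulinoma. Total RNA from cells grown at 22.7 or 5.5 mM glucose was measured on 20 Affymetrix arrays. At each glucose level 1 array came from cells with no amylin, and 9 arrays came from cells given human amylin at 1, 10 or 20 µM for 2, 12 or 24 h. Human amylin, or islet amyloid polypeptide, is a peptide co-secreted with insulin that can aggregate and harm beta cells. Each of the 20 conditions was arrayed once, so there are no replicates of a condition. The error of the glucose difference was therefore the spread of that difference over 10 matched pairs of arrays, each pair sharing its amylin dose and time. The labels give no vehicle and no time for the untreated arrays, and do not say how long cells had been at their glucose level. Nothing says that the arrays came from separate cultures, so p-values measure only the spread between these arrays.

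ChREBP is a transcription factor that is activated by metabolites of glucose. With its partner Mlx it binds carbohydrate response elements, which are pairs of E-box-like motifs with a short spacer. In beta cells Txnip is among its best known targets, and the Txnip protein binds thioredoxin and restrains glucose uptake. In liver, ChREBP is known for inducing Pklr and the enzymes that turn glucose carbon into fatty acids, a task it shares with the sterol-regulated factor SREBP-1c.

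The values are log2 signals made with RMA. Levels of different probe sets are not compared, since probes differ in how well they bind. Of the beta cell markers on the array 10 of 10 lay above the filter, with a mean of 14.65 for Ins2. Markers of other cell types lay above it in 4 of 10 for fibroblasts, 3 of 5 for hepatocytes, 1 of 4 for adipocytes and 1 of 4 for immune cells. Each marker was read on its probe set of highest mean, and 12228 of all 20380 single-gene probe sets lay above the filter. The actin 3′ minus 5′ signal, which grows where RNA is degraded or incompletely copied, was 1.83 ± 0.430 at 22.7 mM and 1.22 ± 0.240 at 5.5 mM (SD, n = 10 arrays each), and higher at 22.7 mM in 10 of 10 pairs. Arrays lacking a scanner description (22.7 mM with 1 µM for 12 h, and 5.5 mM with 10 µM for 24 h) stood apart, with mean correlations to the others of 0.972 and 0.962 against 0.986 to 0.990 for the other 18. Some pairs also went against the rest: among probe sets called without a given pair, the share with the same sign in that pair was 47.7% for 10 µM at 24 h, 66.5% for 1 µM at 2 h and 71.6% for 1 µM at 12 h, against 81.4% to 98.4% in the other 7 pairs.

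Across the 12228 probe sets, 8.12% were called different between glucose levels at an adjusted p under 0.05, with 3.43% higher and 4.69% lower at 22.7 mM. Of the 17 tested member probe sets 5 were called. Txnip 1415996_at and Elovl6 1417404_at were higher at 22.7 mM, and Scd2 1415823_at, Acly 1425326_at and Me1 1430307_a_at were lower. The members' median difference was −0.08 with 8 of 17 positive, beside a median of 0.02 over all probe sets. At an unadjusted p under 0.05 stood 8 of 17, beside 23.2% of all. In 9 or 10 of the 10 pairs 2 of 17 were higher at 22.7 mM (7.3% of all) and 3 of 17 lower (7.04% of all). Without the arrays lacking a scanner description the 5 calls held, at 0.97 for Txnip, 0.29 for Elovl6, −1.25 for Scd2, −0.87 for Acly and −0.40 for Me1. Each of the 5 genes with a called probe set also had a tested probe set that was not called. With 1 probe set a gene, that of highest mean, 270 genes were called higher and 138 lower of 7436. That fit holds the called probe sets of Txnip and Elovl6, and none of the 3 called lower.

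**Figure D1:**
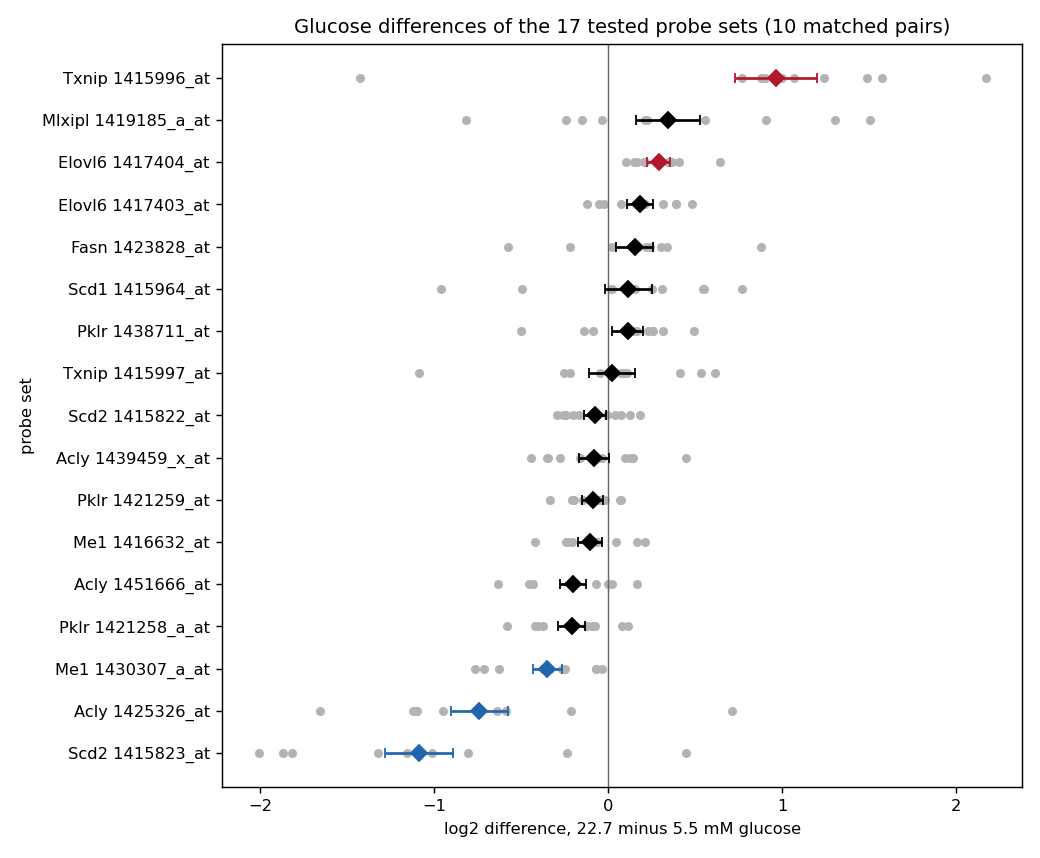
Log2 difference between 22.7 and 5.5 mM glucose for the 17 tested probe sets. Grey points are the 10 matched pairs, diamonds the mean with its standard error, red where called higher, blue where called lower and black where not called. Txnip 1415996_at has the highest mean (0.97) with a single pair at −1.42, and Scd2 1415823_at the lowest (−1.09).

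Txnip 1415996_at ranged from 7.34 to 9.37 at 22.7 mM, with a median of 8.75, and from 7.20 to 8.76 at 5.5 mM, with a median of 7.62. At 22.7 mM the untreated array read 8.94. The 3 doses in ascending order read 7.34, 9.02 and 8.80 at 2 h, 8.20, 9.37 and 8.83 at 12 h, and 8.42, 8.69 and 8.59 at 24 h. Of these 10 arrays 9 were at or above 8.20, and the array of 1 µM at 2 h stood alone at the bottom. At 5.5 mM the untreated array read 7.87, and the doses read 8.76, 7.45 and 7.31 at 2 h, 7.32, 7.20 and 7.59 at 12 h, and 7.65, 7.69 and 7.69 at 24 h. Here the same condition, 1 µM at 2 h, was the highest array, so the groups overlapped through this pair alone.

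The mean was 8.62 ± 0.556 at 22.7 mM and 7.65 ± 0.441 at 5.5 mM (SD, n = 10 arrays each), a difference of 0.97 on the log2 scale (SE 0.24), or 1.96-fold. It passed the test (limma, adjusted p = 0.0219) and had the same sign in 9 of 10 pairs (exact sign-flip permutation test, two-sided p = 0.0156). In the pair of 1 µM at 2 h the difference was −1.42, and in the other 9 it lay between 0.77 and 2.17. Without the array of either side of that pair the difference was 1.23 (SE 0.13, limma adjusted p = 2.4e-04). The call was lost, at 0.83 to 0.94, when an array of 10 or 20 µM at 2 or 12 h was left out, with an adjusted p of at most 0.0657. Within scan days 2, 3 and 4 the difference was 0.82, 0.94 and 1.32. These set 1 array at 22.7 mM against 3 at 5.5 mM, then 4 against 3 and 4 against 2. Doses and times were not matched within a day. With a term for that actin signal added, the difference was 1.22 (SE 0.42), and the limma adjusted p was 0.399. Within glucose levels the slope against that signal was 0.00 (SE 0.31).

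The other Txnip probe set, 1415997_at, did not pass the test for glucose. It read 6.35 to 7.50 at 22.7 mM (median 7.0) and 6.72 to 7.44 at 5.5 mM (median 6.91), a difference of 0.02 (SE 0.13, limma adjusted p = 0.948). In the pair of 1 µM at 2 h it too was lower at 22.7 mM, by 1.09 on the log2 scale (6.35 against 7.44). Without that pair it was higher at 22.7 mM in 6 of 9 pairs, with a mean of 0.15. Over the 20 arrays both Txnip probe sets had a Pearson r of 0.47, and 0.62 after the mean of each glucose level was subtracted. Its slope against the actin signal within glucose levels was −0.50 (SE 0.16, limma adjusted p = 0.183).

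**Figure D2:**
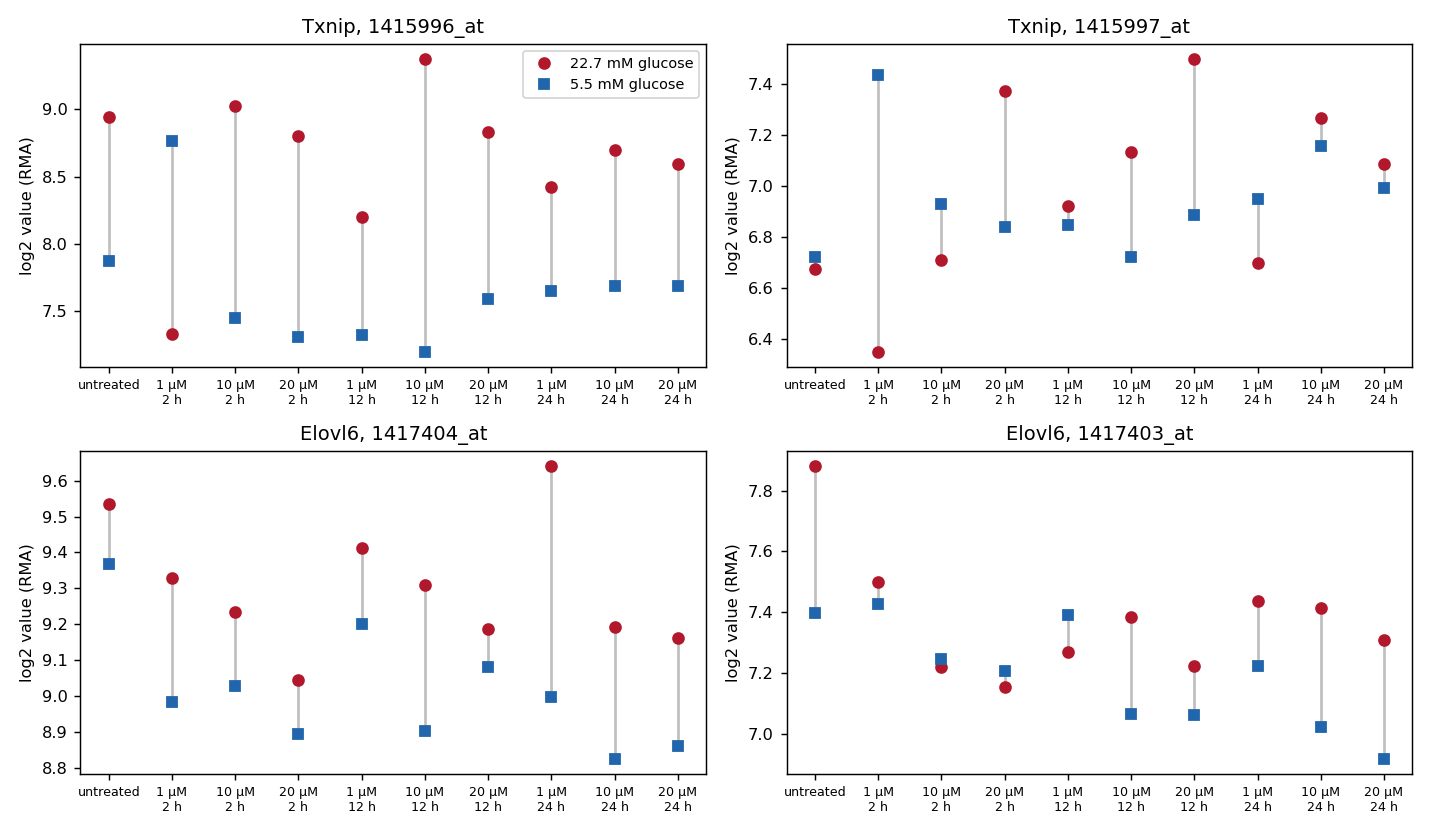
Log2 values of both Txnip and both Elovl6 probe sets in each of the 20 arrays, by amylin condition, with red circles for 22.7 mM and blue squares for 5.5 mM glucose, and a grey line joining each matched pair. For Txnip 1415996_at only the pair of 1 µM at 2 h runs the other way, and for Elovl6 1417404_at all 10 pairs have the red circle on top.

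The promoter windows of these genes are shown because the members are named as ChREBP targets and the element can be read from the letters. RefSeq windows of build GRCm38.p6, from 250 bases before to 50 bases after the start, matched 7 of the 9 genes with 10 windows. Each was searched on both strands for CACGTG (E-box), for CACGNG or CNCGTG followed after 5 bases by CACGNG or CNCGTG (paired elements), for TCACNCCAC (an SREBP site) and for CCAAT. Paired elements were found in Txnip and in 1 of the Pklr windows, and in 0.0822% of the 32851 windows of all genes. An E-box was found in 1 Mlxipl window (7.1505% of all windows), and the SREBP site in the other (1.242%). CCAAT was found in 6 of the 10 windows (37.4083% of all). In the lines below, capitals mark the paired elements with their spacer, or the E-box. The windows are on the plus strand, at chr3:96557707-96558006 for Txnip, chr3:89136373-89136672 for Pklr, chr5:135089640-135089939 for Mlxipl and chr3:129532136-129532435 for Elovl6. Elovl6 is shown as the other gene with a called rise.
Txnip: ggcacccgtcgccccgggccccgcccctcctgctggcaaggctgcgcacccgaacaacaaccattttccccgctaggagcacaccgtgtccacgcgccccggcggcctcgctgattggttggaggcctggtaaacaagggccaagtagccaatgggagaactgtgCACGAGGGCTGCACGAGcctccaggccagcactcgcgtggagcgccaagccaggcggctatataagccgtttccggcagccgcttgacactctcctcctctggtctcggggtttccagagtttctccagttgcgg
Pklr: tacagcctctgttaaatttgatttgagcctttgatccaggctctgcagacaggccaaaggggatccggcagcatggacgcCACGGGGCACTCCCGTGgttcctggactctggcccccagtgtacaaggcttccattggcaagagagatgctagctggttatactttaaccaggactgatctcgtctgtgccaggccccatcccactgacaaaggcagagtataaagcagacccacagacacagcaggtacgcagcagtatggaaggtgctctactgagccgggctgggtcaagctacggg
Mlxipl: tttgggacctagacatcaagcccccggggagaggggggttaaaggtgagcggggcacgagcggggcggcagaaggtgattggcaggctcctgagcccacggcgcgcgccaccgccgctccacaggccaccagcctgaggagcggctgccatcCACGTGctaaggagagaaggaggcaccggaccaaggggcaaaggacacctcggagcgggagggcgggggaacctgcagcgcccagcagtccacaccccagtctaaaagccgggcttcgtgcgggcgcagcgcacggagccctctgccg
Elovl6: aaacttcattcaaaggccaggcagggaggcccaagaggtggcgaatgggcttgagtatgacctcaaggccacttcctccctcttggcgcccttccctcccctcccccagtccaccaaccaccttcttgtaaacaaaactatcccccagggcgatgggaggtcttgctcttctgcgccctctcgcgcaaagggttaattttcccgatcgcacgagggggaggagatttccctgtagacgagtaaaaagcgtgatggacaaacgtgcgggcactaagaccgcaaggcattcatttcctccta
The paired elements lay at −85 to −69 from the start in Txnip and at −170 to −154 in Pklr, and the Mlxipl E-box at −98 to −93. The Elovl6 window held none of the 4 motifs. A match is a description of these letters only, and a window without one says nothing of sites elsewhere.

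Mlxipl, the gene of ChREBP itself, was measured by 1 probe set. It read 10.80 to 12.22 at 22.7 mM (median 11.25) and 10.14 to 11.72 at 5.5 mM (median 11.01). The groups overlapped over most of their range. The difference was 0.35 (SE 0.18), positive in 6 of 10 pairs, and did not pass the test (limma adjusted p = 0.281). The pairs ran from −0.81 in the untreated pair to 1.5. With the actin signal as a covariate it was 0.85 (SE 0.29, limma adjusted p = 0.395).

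Pklr encodes the pyruvate kinase of liver and red cells, which closes glycolysis by making pyruvate. Its 3 probe sets did not pass the test. Probe set 1421258_a_at read 7.17 to 7.76 at 22.7 mM (median 7.40) and 7.45 to 7.86 at 5.5 mM (median 7.62). Its difference was −0.21, negative in 8 of 10 pairs (SE 0.08, limma adjusted p = 0.111). The others differed by −0.09 (1421259_at) and 0.11 (1438711_at). Pklr, whose promoter window above holds paired elements as that of Txnip does, thus had no called probe set.

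Acly encodes ATP citrate lyase, which splits citrate into the acetyl-CoA used for fatty acids. Acly 1425326_at read 10.22 to 11.56 at 22.7 mM (median 10.96) and 10.85 to 12.00 at 5.5 mM (median 11.82). At 5.5 mM 9 of 10 arrays were at or above 11.52 and the array of 10 µM at 24 h was alone at 10.85. The difference was −0.74 (SE 0.16, limma adjusted p = 0.0148), lower at 22.7 mM in 9 of 10 pairs (exact sign-flip permutation test, two-sided p = 0.00977). Acly 1451666_at read 12.01 to 12.72 and 12.47 to 12.92, a difference of −0.20 (SE 0.07, limma adjusted p = 0.108). For this probe set, the Acly one of highest mean, the exact sign-flip permutation test gave two-sided p = 0.0215. Acly 1439459_x_at, whose name ending marks probes that may bind other transcripts, differed by −0.08. Below the filter, Acly 1438389_x_at averaged 3.51 at 22.7 mM and 3.54 at 5.5 mM, and Acly 1439445_x_at 4.61 and 4.55.

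Scd1 and Scd2 encode stearoyl-CoA desaturases, which place a double bond in long fatty acids. Scd2 1415823_at read 7.94 to 9.47 at 22.7 mM (median 8.79) and 9.02 to 10.20 at 5.5 mM (median 9.87). Of the 10 arrays at 5.5 mM 9 were above every array at 22.7 mM, and the exception was again 10 µM at 24 h, at 9.02. The difference was −1.09 (SE 0.19, limma adjusted p = 0.00492), or 0.471-fold, lower at 22.7 mM in 9 of 10 pairs (exact sign-flip permutation test, two-sided p = 0.00586). Scd2 1415824_at, below the filter and so outside the limma test, was lower in 10 of 10 pairs by 0.89 on average (5.87 against 6.76). Its exact sign-flip permutation test, not planned for this probe set, gave two-sided p = 0.00195. Scd2 1415822_at differed by −0.08 (SE 0.06, limma adjusted p = 0.548), with 10.86 to 11.25 at 22.7 mM and 11.02 to 11.29 at 5.5 mM. For this probe set, the Scd2 one of highest mean, the exact sign-flip permutation test gave two-sided p = 0.205. Scd1 1415964_at read 8.60 to 9.61 and 8.29 to 9.57, a difference of 0.12 (SE 0.14, limma adjusted p = 0.681), and Scd1 1415965_at, below the filter, averaged 5.36 and 5.38.

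Me1 encodes cytosolic malic enzyme, which makes NADPH for fatty acid synthesis. Me1 1430307_a_at read 8.65 to 9.12 at 22.7 mM (median 8.89) and 8.90 to 9.45 at 5.5 mM (median 9.24). All 10 pairs were lower at 22.7 mM, by 0.03 to 0.76, where 1.36% of all probe sets were lower in every pair. The difference was −0.35 (SE 0.08, limma adjusted p = 0.0210), and the call was lost when an array of 1 µM at 24 h, 10 µM at 2 h or 20 µM at 12 h was left out (adjusted p at most 0.0617). Me1 1416632_at differed by −0.10 (SE 0.07, limma adjusted p = 0.418).

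The 3 probe sets called lower at 22.7 mM are set here beside the actin 3′ minus 5′ signal, which was higher there. With that signal as a covariate the differences were −0.23 (SE 0.21) for Scd2 1415823_at, −0.10 (SE 0.21) for Acly 1425326_at and −0.21 (SE 0.14) for Me1 1430307_a_at, with limma adjusted p of 0.743, 0.889 and 0.655. Within glucose levels, the log2 value changed per unit of the actin signal by −0.84 (SE 0.20, limma adjusted p = 0.0640) for Scd2 1415823_at and −0.62 (SE 0.22, adjusted p = 0.230) for Acly 1425326_at, and by −0.18 (SE 0.11, adjusted p = 0.591) for Me1 1430307_a_at, none of which passed the test. For all probe sets, 0.278% had a called negative slope and 0.0409% a called positive one. These slopes were chosen after the data were seen. The other tested probe sets of these genes had slopes of −0.04 (Scd2 1415822_at), −0.12 (Acly 1451666_at), 0.11 (Acly 1439459_x_at) and 0.02 (Me1 1416632_at). Scd2 1415823_at and Acly 1425326_at followed each other across arrays, with a Pearson r of 0.95 over the 20 arrays and 0.91 within glucose levels, read on the same arrays. Within scan days 2, 3 and 4 the glucose differences were −0.92, −1.42 and −0.92 for Scd2 1415823_at and −0.48, −1.20 and −0.48 for Acly 1425326_at. Here too doses and times were not matched within a day. With the actin signal included as a covariate, 0 of the 12228 probe sets were called for glucose (limma, with 1213 at an unadjusted p under 0.05), so this fit cannot tell RNA quality and glucose apart.

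**Figure D3:**
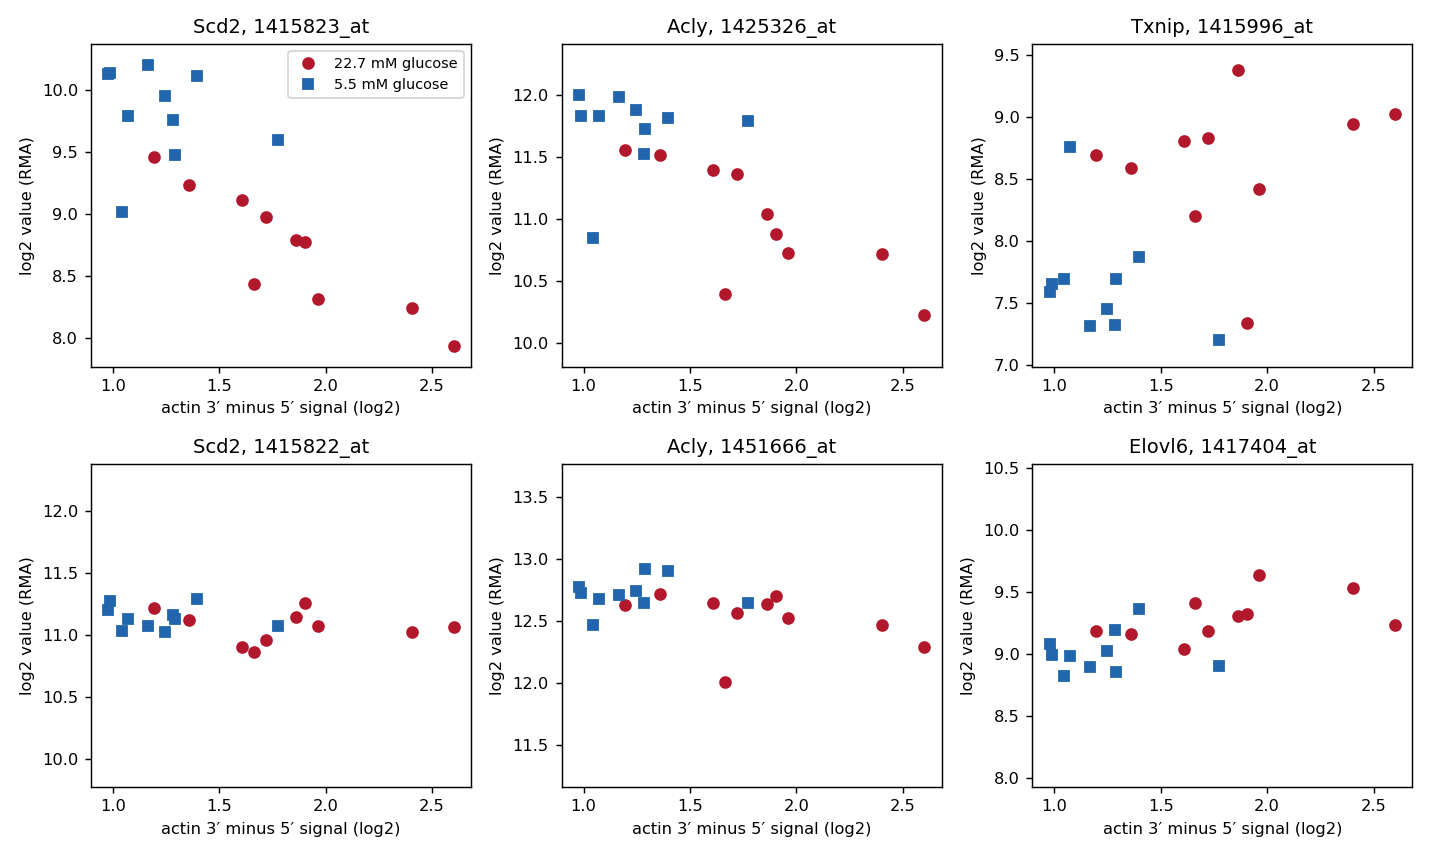
Log2 values of 6 probe sets against the actin 3′ minus 5′ signal of the same array, red circles for 22.7 mM and blue squares for 5.5 mM glucose, with vertical axes of equal span. Scd2 1415823_at and Acly 1425326_at fall along the axis within the red circles, while Scd2 1415822_at stays between 10.86 and 11.29. Not shown are Me1 1430307_a_at, also called lower, with a slope of −0.18 within glucose levels, and Txnip 1415997_at, with −0.50.

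Fasn encodes fatty acid synthase, which builds palmitate. Its probe set read 9.48 to 10.13 at 22.7 mM (median 9.98) and 9.23 to 10.27 at 5.5 mM (median 9.78). The groups overlapped, and the difference of 0.15 (SE 0.11) did not pass the test (limma adjusted p = 0.424), with 8 of 10 pairs positive.

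Elovl6 encodes the elongase that lengthens palmitate, and it was the enzyme among these genes that was called higher at 22.7 mM. Elovl6 1417404_at read 9.04 to 9.64 at 22.7 mM (median 9.27) and 8.82 to 9.37 at 5.5 mM (median 8.99). The groups overlapped, but every pair was higher at 22.7 mM, by 0.10 to 0.65, where 1.48% of all probe sets were higher in every pair. The difference was 0.29 (SE 0.07, limma adjusted p = 0.0157), or 1.22-fold (exact sign-flip permutation test, two-sided p = 0.00195, the smallest that 10 pairs allow). It kept its call with each of the 20 arrays left out in turn, at 0.25 to 0.31. Elovl6 1417403_at differed by 0.18 (SE 0.07, limma adjusted p = 0.146), positive in 7 of 10 pairs, and both probe sets had an r of 0.74 over the 20 arrays. With the actin signal as a covariate the difference of 1417404_at was 0.31 (SE 0.12, limma adjusted p = 0.435). Within scan days 2, 3 and 4, with doses and times not matched, it was −0.04, 0.49 and 0.20, where day 2 held 1 array at 22.7 mM.

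Other genes of the pathway were read on the probe set of highest mean. Of 9 tested factors and partners of ChREBP, among them Mlx (0.10), Mlxip (0.09) and Srebf1 (0.17), none was called, and their median was 0.05 beside 0.02 over all probe sets. Of 6 tested alpha-arrestin and thioredoxin genes none was called, with 0.22 for Arrdc4, an alpha-arrestin related to Txnip (SE 0.10, limma adjusted p = 0.208). Of 9 other tested ChREBP targets, a list that also holds Arrdc4, none was called. Of these, 8 of 9 were positive with a median of 0.09, beside 55.8% positive over all probe sets. Klf10, a transcription factor gene, differed by 0.33 (SE 0.11, limma adjusted p = 0.0696). Of 15 tested lipid synthesis genes 2 were called higher and none lower, beside 3.43% higher and 4.69% lower of all probe sets. They were Elovl5, an elongase of polyunsaturated fatty acids, at 0.39 (SE 0.11, limma adjusted p = 0.0434), and Hacd3, a dehydratase of the elongation cycle, at 0.29 (SE 0.06, limma adjusted p = 0.0118). None of 6 tested NADPH supply genes was called. With the actin signal as a covariate 0 of the 12228 probe sets were called, these genes included.

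Amylin was compared as the mean of 9 treated conditions minus the untreated one, over both glucose levels. No probe set was called (limma, 0 of 12228, with 657 at an unadjusted p under 0.05, or 5.37%). Both Elovl6 probe sets had negative differences, −0.39 (SE 0.12) for 1417403_at and −0.33 (SE 0.11) for 1417404_at, with a limma adjusted p of 0.787 each. Txnip 1415996_at differed by −0.30 (SE 0.39) and 1415997_at by 0.29 (SE 0.22). Fasn differed by −0.31 (SE 0.18), Mlxipl by −0.16 (SE 0.31) and Scd1 1415964_at by −0.26 (SE 0.23). The members' median was −0.06 beside −0.04 over all probe sets. That of the 15 lipid synthesis genes was −0.18 with 1 positive, beside 40.5% positive over all probe sets. All of these values share the single untreated array of each glucose level.

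At 5.5 mM the untreated array was the highest of 10 for 6 of the 17 tested member probe sets, beside 19.3% of all probe sets. Mlxipl read 11.72 there and 10.14 to 11.55 in the 9 treated arrays. Scd1 1415964_at read 9.57 against 8.29 to 9.41. Fasn read 10.27 against 9.23 to 10.08, and Elovl6 1417404_at read 9.37 against 8.82 to 9.20. Acly 1439459_x_at and Scd2 1415822_at were the others. Each comparison rests on a single untreated array. At 22.7 mM the untreated array was highest for 1 of 17, beside 11.7% of all: Elovl6 1417403_at read 7.88 against 7.15 to 7.50. It was lowest for 1 of 17, Pklr 1438711_at, beside 10.3% of all, and at 5.5 mM for Txnip 1415997_at and Pklr 1421259_at, beside 7.87%.

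The treated minus untreated difference of Scd1 1415964_at was 0.34 at 22.7 mM and −0.85 at 5.5 mM, and that of Mlxipl 0.48 and −0.81. The difference between glucose levels was 1.19 (SE 0.38) for Scd1 and 1.29 (SE 0.55) for Mlxipl, and neither passed the test (limma adjusted p = 1.00 each). Of all probe sets 0 were called in this comparison, with 426 at an unadjusted p under 0.05 (3.48%). With array weights, a setting in which 373 probe sets were called, Scd1 had 1.21 (limma adjusted p = 0.0113) and Mlxipl 1.27 (0.0170). For each, this was the only call in 30 alternative settings, and the iteration of the weights did not fully converge. Both values rest on a single untreated array at each glucose level.

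**Figure D4:**
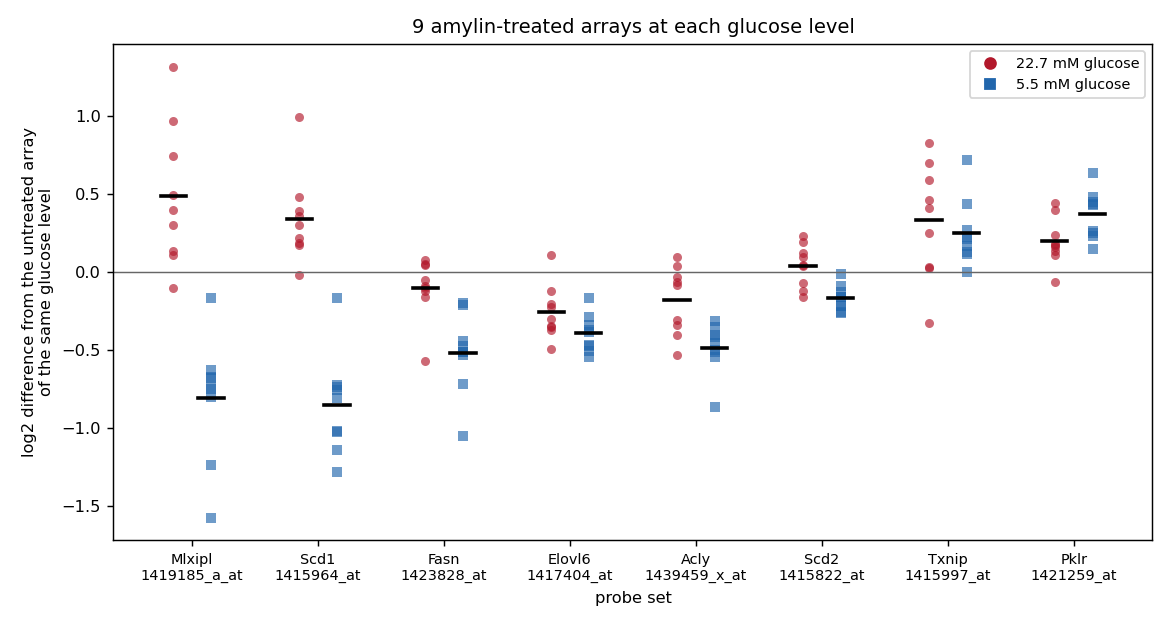
Log2 difference of each of the 9 amylin-treated arrays from their own level's untreated array, for 8 probe sets, with red circles for 22.7 mM, blue squares for 5.5 mM and a black bar for the mean of 9. All 9 blue squares lie below 0 for Mlxipl, Scd1, Fasn, Elovl6, Acly 1439459_x_at and Scd2 1415822_at. These are the 6 of 17 tested member probe sets whose untreated array was the highest at 5.5 mM. The position of their squares follows from that choice and is no separate result. Tested probe sets beyond the 8 are not shown. For each probe set, the 9 points of a glucose level share a single untreated array.

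Dose was compared as 20 minus 1 µM over both glucose levels and 3 times. None of 12228 probe sets was called (limma, 272 at an unadjusted p under 0.05, or 2.22%). Elovl6 differed by −0.23 (SE 0.10) on 1417403_at and −0.22 (SE 0.08) on 1417404_at, and Acly 1425326_at by 0.47 (SE 0.21), with a limma adjusted p of 0.998 each. For Txnip 1415996_at the difference between 20 and 1 µM was 0.76 at 22.7 mM and −0.38 at 5.5 mM. The difference of the 2 was 1.14 (SE 0.41) on that probe set and 0.84 (SE 0.24) on 1415997_at, and did not pass the test (limma adjusted p = 0.940 each, with 0 of 12228 called and 4.09% at an unadjusted p under 0.05). Without the array of 22.7 mM, 1 µM and 2 h it was 0.80 on 1415996_at and 0.75 on 1415997_at. Without the 5.5 mM array of that condition it was 0.66 and 0.64. For 10 minus 1 µM none was called either (291 at an unadjusted p under 0.05, or 2.38%).

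Times in amylin were compared over both glucose levels and 3 doses, and no member was called. For 24 minus 2 h, 0.0164% of probe sets were called, with Txnip 1415996_at at 0.01 (SE 0.30), Elovl6 1417404_at at 0.03 (SE 0.08) and Mlxipl at 0.23 (SE 0.24). The Txnip value rested on the pair of 1 µM at 2 h: it was −0.43 without its 22.7 mM array and 0.45 without its 5.5 mM array, with limma adjusted p of 0.532 and 0.727. For 12 minus 2 h, 0.0818% were called (0.0327% higher and 0.0491% lower), with Mlxipl at 0.34 (SE 0.24) and Scd1 1415964_at at −0.25 (SE 0.18). At an unadjusted p under 0.05 stood 7.62% and 7.83% of all probe sets in these comparisons, and 0 of 17 members in either. For 24 minus 12 h none was called (limma, 539 at an unadjusted p under 0.05, or 4.41%). The change from 2 to 24 h differed between glucose levels by 0.86 (SE 0.36) for Acly 1425326_at and 0.83 (SE 0.41) for Scd2 1415823_at, with limma adjusted p of 0.399 and 0.422. Both values include the 5.5 mM array of 10 µM at 24 h, which lacks a scanner description and was the lowest of its level for each (10.85 and 9.02). No probe set was called in this comparison (1461 at an unadjusted p under 0.05, or 11.9%, and 2 of 17 members).

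The glucose difference of Txnip 1415996_at over the 3 pairs of a time averaged 0.55 at 2 h, 1.43 at 12 h and 0.89 at 24 h, the 2 h mean holding the pair at −1.42. That of Elovl6 1417404_at averaged 0.23, 0.24 and 0.44. The untreated pair gave 1.07 for Txnip and 0.17 for Elovl6.

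Genes most like Txnip 1415996_at across the 20 arrays, among 7436 genes, were Rnf130 (Pearson r 0.86), Snrpc (0.86), Hadh (0.85), Ifi30 (0.85) and Clu (0.84). After the mean of each glucose level was subtracted they were Snrpc (0.77), Rbm22 (0.75), Tubg1 (0.74), Coa3 (0.73) and Slc38a5 (0.73). Most like Elovl6 1417404_at were Ptprd (0.85), Abhd4 (0.83) and Sh3glb1 (0.82), and within glucose levels Ensa (0.81), Mrpl40 (0.80) and Insig2 (0.78). Txnip and Elovl6 themselves had an r of 0.43 over the 20 arrays and −0.07 within glucose levels. These are descriptions, since all genes were read on the same arrays, which differ in RNA quality and scan day. Mlxipl had an r of 0.62 with Fasn and 0.23 with Txnip 1415996_at within glucose levels.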

How the data were processed

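RNA of MIN6 cells was measured on 20 arrays of 1 condition each. The deposited log2 values were made by the authors with RMA in affy 1.12.2 under R 2.4.0, per the submitters' processing notes; whether this was a single run was not stated. Scanner descriptions of 18 arrays were used only for the scan day. Of 22690 probe sets, 20380 had exactly 1 gene, and those with a mean below 6.71 were left out. Differences were fitted in limma 3.58.1 (lmFit, eBayes with trend) under R 4.3.3, with terms for glucose and the 10 amylin conditions (9 residual degrees of freedom). Differences between glucose levels came from a crossed model (8 degrees). The Benjamini-Hochberg method adjusted p-values over 12228 probe sets, with 0.05 as the threshold, and the code was tested on simulated data. A test flipping the signs of the 10 pair differences was planned for the probe set of highest mean of each gene. It was also run on the other member probe sets. Its p-values are unadjusted and rest on the same pair differences as the limma fit. Named were all member probe sets, pathway genes that passed or had the smallest p, and the most correlated genes. The members and lists were chosen with earlier results of these data known. Promoter sequences are from RefSeq (GRCm38.p6). The number of arrays limits the precision.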

Additional observations from a re-analysis of the deposited data

Results flagged for a closer look

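In each of 42 groups of 10 arrays (21 probe sets at 2 glucose levels), the highest or lowest array was checked for a gap to the nearest other array that was large against the group's range (Dixon's test at 95%). Chance flags about 1 in 20 groups, and 6 of 42 had such a gap. Txnip 1415996_at at 5.5 mM had its highest array, 8.76, at 1 µM and 2 h. Scd1 1415964_at at 22.7 mM had its highest array, 9.61, at the same dose and time. Elovl6 1417403_at at 22.7 mM had its highest array, 7.88, without amylin. Fasn at 22.7 mM had its lowest array, 9.48, at 1 µM and 12 h. At 5.5 mM the array of 10 µM and 24 h was the lowest for Acly 1425326_at (10.85) and the highest for Pklr 1438711_at (7.27). The Fasn, Acly and Pklr values come from the arrays that have no scanner description.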

How the results depend on the processing

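The labels give no replicate numbers, so no fit with a replicate block was made; the main fit already matches arrays of the same dose and time. The number of probe sets called for glucose (993) was 408 (270 higher) with 1 probe set a gene, 2008 with scan day as a block, 1640 without the arrays lacking a scanner description, 2178 with array weights, 1992 without those arrays and that of 22.7 mM, 1 µM and 2 h (a setting added after seeing the data), and 0 with the actin covariate. It was 760 (385 higher) with arrays centred on their medians, beside 420 higher of 993. It was 418 to 1518 with 1 array left out. For 24 minus 2 h (2 called) the counts were 5 with the lowest 60% left out, 0 with centring and with the actin covariate, 1 with a further quantile normalization, without the arrays lacking a scanner description and with array weights, 4 with 1 probe set a gene and in an additive model, 8 with the scan day block, 11 in the added setting and 0 to 222 with 1 array left out. For 12 minus 2 h (10 called) they were 4 with centring, 34 without the arrays lacking a scanner description, 18 in the added setting and 0 to 17 with 1 array left out. For 24 minus 12 h they were 0 to 14 with 1 array left out. The glucose difference of the amylin effect (0 called) had 373 calls with array weights, whose iteration did not fully converge, and 1 in the added setting. Scd1 1415964_at then stood at 1.21 (limma adjusted p = 0.0113) and Mlxipl at 1.27 (0.0170) with array weights. The glucose difference of the 24 minus 2 h effect had 430 with array weights, 86 in the added setting and 0 to 52 with 1 array left out, and that of 20 minus 1 µM had 1 with the scan day block. The cause was not tested.

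For single member probe sets, 5282 of 5310 alternative values kept their side of the threshold and their direction or were uncalled, 19 lost a call, 9 gained one and 0 reversed a call, and 378 uncalled values changed sign. Only 5 of the 170 results behind these values were called in the main fit. Most values that kept their side were thus uncalled in both, and the 19 losses all fell on those 5. All 5 glucose calls were lost with the actin covariate. Gains for glucose were Acly 1451666_at (−0.19 without the arrays lacking a scanner description), Me1 1416632_at (−0.24 with the scan day block) and Pklr 1421258_a_at (−0.23 with array weights). The scan day block gave no value for the amylin, 12 minus 2 h, 24 minus 12 h and dose comparisons, since the 5.5 mM array of 1 µM and 12 h was alone on its day. Arrays give no counts, so weak probe sets near the filter carry the least certain values.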
